A study of Homo sapiens with 24 samples.

Results

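Replication-dependent histone H4 genes of the HIST1 cluster on chromosome 6 were examined for binding of Rbap46 and for loss of H3K9ac after depletion of HAT1. The set comprised 10 genes, HIST1H4A, HIST1H4B, HIST1H4C, HIST1H4D, HIST1H4E, HIST1H4F, HIST1H4H, HIST1H4I, HIST1H4J and HIST1H4K. H4 genes outside this list, such as H4C7, which follows HIST1H4F in RefSeq order, were not examined. A site was counted at a gene when any of its bases lay within 1 kb of the gene's start in hg19. The starts were known to the nearest 100 bp. By this rule 19 of the 32666 sites in the tables were at H4 genes, of which 13 were among the 30475 Rbap46 sites and 6 among the 2191 H3K9ac sites.

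The measurements came from ChIP-seq, in which DNA bound by a protein or carrying a mark is pulled down with an antibody and sequenced, in hTert-HME1, a telomerase-immortalised line of human mammary epithelium. The Rbap46 comparison set 2 Rbap46 libraries against 2 input libraries of untreated cells, input being sheared chromatin without immunoprecipitation. The H3K9ac comparison set 3 libraries of shControl cells against 3 libraries of cells labelled shHAT1, which carry a short hairpin RNA against HAT1. The tables give no expression values, so the depletion of HAT1 itself was not checked here. Their titles bear the names shCon2, shCon3, shCon5, shHAT1A7, shHAT1B6 and shHAT1C5, without stating what these stand for. The other 14 of the 24 libraries, made with antibodies to HAT1, H4K12ac and H4K5ac, were not used here. Each table gave group means only, so no spread between replicates could be computed and no library could be left out, and the depth of each library is unknown. The input level was raised over a segment of chromosome 22. There the median input level was 7.48 over 184 sites from 19 to 24 Mb, against 5.50 over the remaining 571 of the chromosome. Its relation to the labelled cell line was not tested, and other chromosomes were not scanned here. Positions of sites are given in hg19, the build in the submitters' processing notes, and those of promoter sequences in GRCh38.p14.

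Histone H4 is needed in large amounts when DNA is replicated, and its canonical genes, which encode the same protein, are switched on together in S phase. HAT1 acetylates newly made H4 on lysines 5 and 12 before the histone is placed on DNA, and Rbap46 (RBBP7) is the histone-binding partner of HAT1 in that complex. H3K9ac, acetylation of lysine 9 of histone H3, is a mark of active promoters. The promoters of H4 genes carry a conserved element just ahead of the TATA box, which the factor HINFP binds and which serves S-phase transcription.

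Promoter sequences were available in the RefSeq table (GRCh38.p14) for 8 of the 10 genes. All 10 were matched to their current symbols, and HIST1H4A (H4C1) and HIST1H4C (H4C3) are given by name only. The last 100 bases before the start are shown for the 8 genes, so that the region covered by the Rbap46 sites can be compared between members. Capitals mark GGTCCG, the core of the H4 element, and TATAA, the letters of a TATA box. The search for TATAA was added after the sequences were seen.

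HIST1H4B (H4C2, GRCh38.p14 chr6:26027284-26027383, minus strand): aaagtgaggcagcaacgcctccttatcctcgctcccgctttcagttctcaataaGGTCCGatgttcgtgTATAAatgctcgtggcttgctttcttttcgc
HIST1H4D (H4C4, GRCh38.p14 chr6:26189113-26189212, minus strand): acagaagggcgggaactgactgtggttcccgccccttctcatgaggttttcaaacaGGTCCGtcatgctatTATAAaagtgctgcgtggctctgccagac
HIST1H4E (H4C5, GRCh38.p14 chr6:26204510-26204609, plus strand): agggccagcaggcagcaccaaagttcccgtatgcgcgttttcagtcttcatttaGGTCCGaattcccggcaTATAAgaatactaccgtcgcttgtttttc
HIST1H4F (H4C6, GRCh38.p14 chr6:26240293-26240392, plus strand): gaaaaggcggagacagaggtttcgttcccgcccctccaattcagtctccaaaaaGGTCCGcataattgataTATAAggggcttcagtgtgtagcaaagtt
HIST1H4H (H4C8, GRCh38.p14 chr6:26285535-26285634, minus strand): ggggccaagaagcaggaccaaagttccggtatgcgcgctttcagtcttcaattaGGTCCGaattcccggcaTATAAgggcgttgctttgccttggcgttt
HIST1H4I (H4C9, GRCh38.p14 chr6:27139182-27139281, plus strand): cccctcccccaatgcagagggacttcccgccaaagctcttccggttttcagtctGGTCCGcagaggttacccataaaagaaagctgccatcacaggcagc
HIST1H4J (H4C11, GRCh38.p14 chr6:27823992-27824091, plus strand): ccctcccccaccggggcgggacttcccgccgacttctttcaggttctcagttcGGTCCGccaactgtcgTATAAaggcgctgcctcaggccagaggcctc
HIST1H4K (H4C12, GRCh38.p14 chr6:27831561-27831660, minus strand): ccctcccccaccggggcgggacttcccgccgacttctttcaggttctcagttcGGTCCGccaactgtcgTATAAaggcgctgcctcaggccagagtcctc

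GGTCCG was present on the gene strand of 8 of the 8 H4 promoters. Its last base lay between 39 and 42 bases before the start. Among the 250 bases before the start of all 35116 RefSeq promoters, 5.15% held GGTCCG on the gene strand and 9.43% on either strand. TATAA followed at a spacing of 9 to 11 bases in 7 of the 8 promoters, with its first base 29 to 31 bases before the start. HIST1H4I had no exact TATAA in the stretch shown, which reads CATAAAA in that place. The longer form TATAAA, which contains TATAA, occurred in 4 of the 8 promoters (HIST1H4B, HIST1H4D, HIST1H4J and HIST1H4K), against 10.72% of all promoters on either strand. In the last 100 bases on the gene strand, TATAA was found in 6.72% of all promoters. Over 250 bases and either strand it was found in 8 of the 8 H4 promoters and in 18.93% of all. CCAAT, the core of the CCAAT box, occurred in 2 of the 8 (HIST1H4F and HIST1H4I), against 32.01% of all promoters on either strand.

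**Figure D1:**
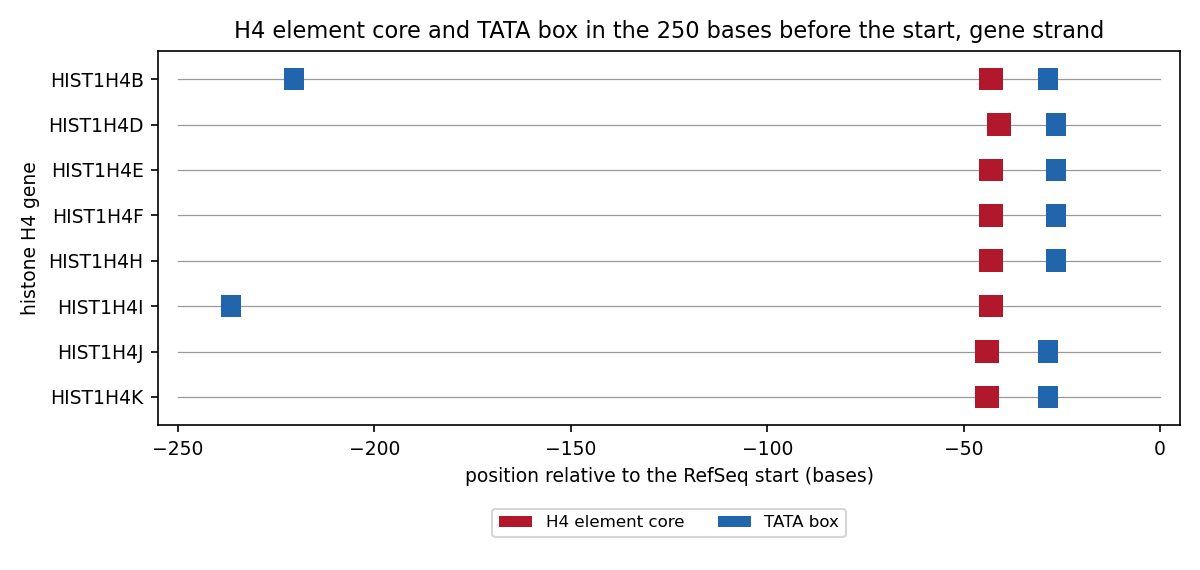
Positions of the H4 element core (red) and of the letters TATAA (blue, named TATA box in the key) on the gene strand of the 8 H4 promoters. The axis gives bases before the RefSeq start. Blue marks at -223 in HIST1H4B and -239 in HIST1H4I are TATAA letters away from the usual place of a TATA box. The core sits at nearly the same place in every gene shown, ending 39 to 42 bases before the start. HIST1H4I has no exact TATAA beside it.

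The promoters otherwise differed. Over 250 bases, the median identity of the 28 pairs of H4 promoters was 51.95% in a global alignment, and the lowest was 46.7%. The pair HIST1H4J and HIST1H4K stood apart with 98.0% identity and 5 mismatched bases. The next pair was HIST1H4E and HIST1H4H, with 72.5% identity, and no other pair exceeded 57.0%. Because HIST1H4J and HIST1H4K are nearly identical ahead of their starts, how the authors' mapping divided reads between them is not stated, and their values are uncertain for that reason.

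Rbap46 was enriched over input at 9 of the 10 H4 genes, at the false discovery rate (FDR) of under 0.05 in the authors' deposited table. The exception was HIST1H4F. Of all sites the authors tested, 37.6% passed this limit as higher in Rbap46. In the stretch of chromosome 6 from 26 to 28 Mb that holds the cluster, 18.1% of 2-kb tiles were touched by such a site. At each of the 9 genes an Rbap46 site covered the start as given. For HIST1H4J the site ended 11 bp past it, which is less than the precision of the start.

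The level at a site is the authors' log2 mean normalized read concentration of a group, and the difference is that of Rbap46 minus input on the log2 scale. Over the 9 genes, taking the site nearest the start, the median difference was 2.09, which is 4.26-fold. Over the whole table the median was 1.05, or 2.07-fold. The difference was at least 2-fold at 9 of the 10 genes, against 21.9% of the sites the authors tested. It was at least 4-fold at 6 of the 10 genes, against 0.37% of the sites tested.

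HIST1H4E had the strongest Rbap46 site of the set. In the authors' deposited table, its level at chr6:26204530-26205030 was 10.22 in Rbap46 and 6.88 in input, a difference of 3.34 (FDR 7.27e-156). On the linear scale this amounts to 1193 against 118 normalized reads, or 10.1-fold. Of all 30475 sites in the table, 1 had a smaller p-value and 4 had a larger difference.

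HIST1H4H was next by p-value. Its site at chr6:26285488-26285988 in the authors' deposited table had a level of 9.37 in Rbap46 and 7.08 in input, a difference of 2.29 (FDR 7.01e-57). HIST1H4E and HIST1H4H had the highest Rbap46 levels of the set. By difference, HIST1H4J at 2.36 and HIST1H4K at 2.37 stood above HIST1H4H. Any relation to the similarity of the HIST1H4E and HIST1H4H promoters was not tested.

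HIST1H4B and HIST1H4D had the same difference of 2.09. In the authors' deposited table, HIST1H4B at chr6:26027139-26027639 stood at 9.04 against 6.95 (FDR 3.76e-38). For HIST1H4D, chr6:26189058-26189558 stood at 8.83 against 6.74 in the authors' deposited table (FDR 1.19e-36). Both sites covered the start as given.

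HIST1H4C and HIST1H4I followed with differences just under 4-fold. In the authors' deposited table, HIST1H4C at chr6:26104025-26104525 had levels of 8.43 and 6.48, a difference of 1.95 (FDR 4.95e-26). The site of HIST1H4I at chr6:27106780-27107280 had levels of 8.30 and 6.36 in the authors' deposited table, a difference of 1.94 (FDR 3.92e-23). HIST1H4I had the lowest difference of the 7 genes with both a promoter sequence and an Rbap46 site, the other 6 ranging from 2.09 to 3.34. HIST1H4C at 1.95 and HIST1H4A at 1.05 have no promoter sequence here. Any relation of the difference to the missing TATAA of HIST1H4I was not tested.

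HIST1H4J and HIST1H4K, the near-identical pair, had nearly the same difference, at low input levels. For HIST1H4J, chr6:27791411-27791911 had levels of 7.92 and 5.56 in the authors' deposited table, a difference of 2.36 (FDR 2.95e-22). For HIST1H4K, chr6:27799246-27799746 had levels of 7.63 and 5.26 in the authors' deposited table, a difference of 2.37 (FDR 3.83e-20). These were the lowest input levels of the 9 genes.

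HIST1H4A was the weakest of the 9. In the authors' deposited table, its site at chr6:26021783-26022283 had levels of 7.26 and 6.21, a difference of 1.05 (FDR 3.67e-05), equal to the median of all sites. A second site, on the side of the neighbouring gene H3C1 in RefSeq order, lay at chr6:26021168-26021668 with a difference of 0.84 (FDR 0.00899) in the authors' deposited table. With 8 of 9 genes at 1.94 or more, HIST1H4A stood below the other genes by 0.89 or more.

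HIST1H4F had no Rbap46 site within 1 kb. The nearest was 5.2 kb from its start, with a difference of 1.10 (FDR 2.83e-07) in the authors' deposited table. Its promoter holds both the GGTCCG core and the TATAA letters at the usual places. The table lists only sites up to an FDR of 0.05, so whether HIST1H4F had a weaker site cannot be told from it.

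A second Rbap46 site within 1 kb was listed for 4 genes, HIST1H4A, HIST1H4H, HIST1H4J and HIST1H4K. The differences of these 4 sites were 0.84, 0.68, 1.12 and 1.22 respectively, with a median of 0.98. At each of the 4 genes the second site had a smaller difference than the site over the start. At HIST1H4H the second site, chr6:26286422-26286922, was the member farthest from a start, at 622 bp. The nearest site beyond the 1-kb limit lay 1228 bp from HIST1H4E and had a difference of 1.09.

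**Figure D2:**
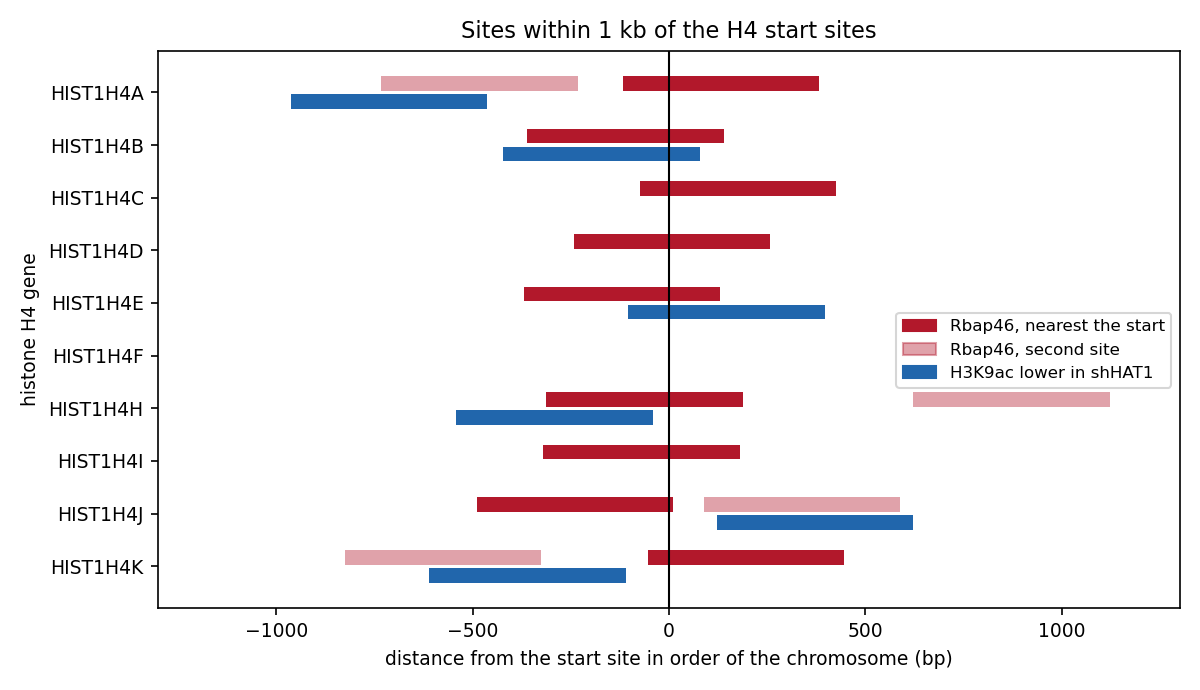
Extent of each site within 1 kb of an H4 start, with the distance from the start in bp in order of the chromosome. Dark red bars are the Rbap46 sites nearest the start, pale bars second Rbap46 sites, and blue bars H3K9ac sites lower in shHAT1. All 9 dark red bars cross the start, and 2 of the 6 blue bars do.

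The H4 starts were then set against the rest of the cluster. From 26 to 28 Mb of chromosome 6 the table held 173 Rbap46 sites, 160 of which were not at the listed H4 genes. Whether any of them lay at an H4 gene outside the list was not checked. Those 160 sites had a median difference of 1.03, with quartiles of 0.89 and 1.17, and 1 of them reached a 4-fold difference. Ordered by p-value, 8 of the first 9 places among the 173 sites were held by H4 genes, namely all of the 9 except HIST1H4A. The same 8 genes held 8 of the first 9 places by difference.

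The exception was the site at chr6:26123066-26123566, at 9.34 in Rbap46 and 6.80 in input, a difference of 2.54 (FDR 3.72e-64) in the authors' deposited table. It took the second place in the cluster, and the gene it belongs to was not determined. The next sites outside the listed H4 genes were chr6:26087640-26088140 and chr6:26327879-26328379, with differences of 1.71 and 1.62 computed from the authors' deposited table.

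The input level of H4 sites was within the usual range. The median input level of the 9 nearest sites was 6.48, against 6.31 at the other sites of the cluster and 5.84 in the whole table. Among the 22044 other sites with an input level in the range of the 9 genes, from 5.26 to 7.08, the median difference was 1.01 and 0.64% reached 4-fold.

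**Figure D3:**
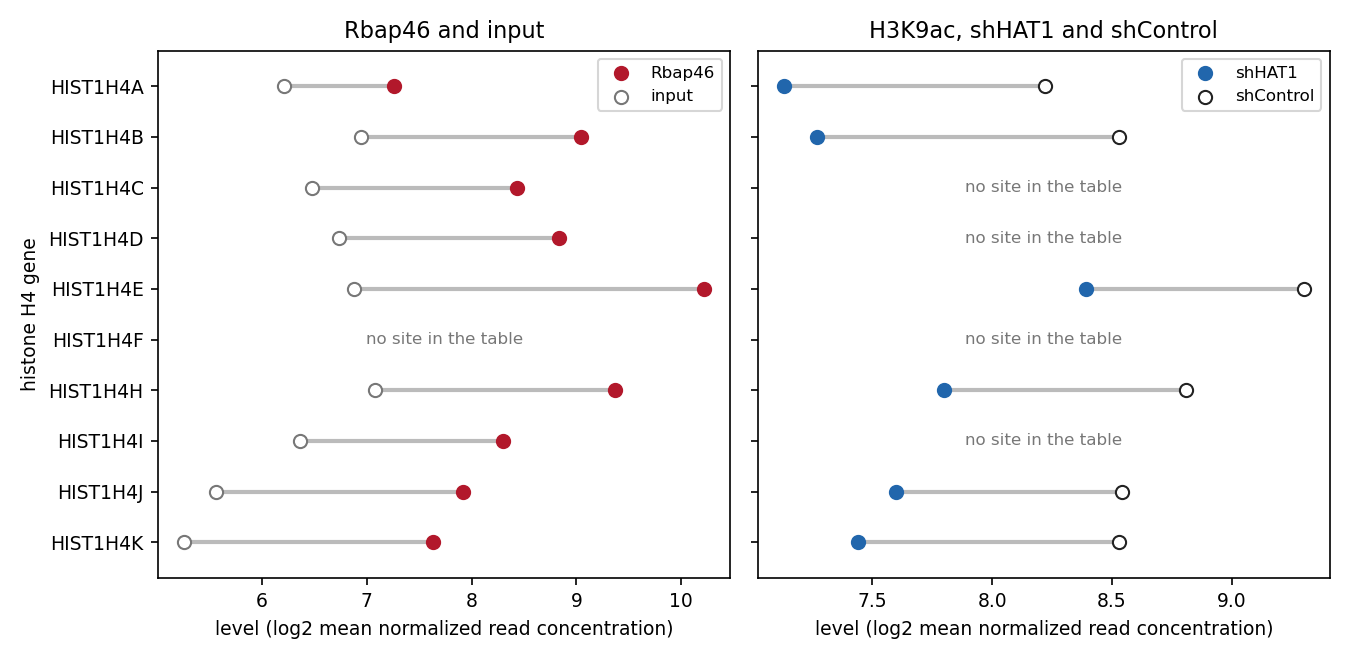
Levels (log2 mean normalized read concentration, the authors' group means) at the site nearest the start of each H4 gene, for Rbap46 and input (left) and for H3K9ac in shHAT1 and shControl cells (right). Rbap46 lies above input at 9 genes, most at HIST1H4E (10.22 against 6.88), and H3K9ac is lower in shHAT1 at 6 genes by 0.91 to 1.26.

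H3K9ac was lower in shHAT1 than in shControl cells at 6 of the 10 H4 genes at FDR under 0.1 in the authors' deposited table. These were HIST1H4A, HIST1H4B, HIST1H4E, HIST1H4H, HIST1H4J and HIST1H4K. All 6 also had an Rbap46 site, as did 9 of the 10 genes in all. The share of all H3K9ac sites near an Rbap46 site is not given here. No site with higher H3K9ac was listed within 1 kb of the starts of the 10 genes. Such sites were rare throughout, at 17 of the 2191 listed. Of all sites the authors tested, 18.0% were called lower at this limit, and 4.0% of 2-kb tiles of the cluster were touched by such a site. The 6 sites passed only at the looser limit. None of the 6 was under 0.05, where 6.56% of the tested sites were called, and all 6 had an unadjusted p-value under 0.05, as did every site listed in the authors' deposited table. Whether the mark fell in all cells or in a share of them cannot be told apart in bulk chromatin.

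Over the 6 genes the median of shHAT1 minus shControl was -1.05, so that 48.3% of the shControl signal was left. In the whole table the median was -0.78. A loss of at least 2-fold was seen at 4 of the 10 genes, against 3.34% of the sites the authors tested.

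The largest loss was at HIST1H4B. Its site at chr6:26027078-26027578 went from 8.53 in shControl to 7.27 in shHAT1 in the authors' deposited table, a difference of -1.26 (FDR 0.0714), leaving 41.8% of the signal. This site overlapped the Rbap46 site of the gene by 440 bp. Of the 6 it nevertheless had the highest FDR.

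HIST1H4A and HIST1H4K both had a difference of -1.09, leaving 47.0%. The authors' deposited table gave HIST1H4K levels of 8.53 and 7.44 at chr6:27798690-27799190 (FDR 0.0571). For HIST1H4A the levels were 8.22 and 7.13 at chr6:26020937-26021437 (FDR 0.0604) in the authors' deposited table. The HIST1H4A site lay 463 bp from the start, the farthest of the 6, on the side of the neighbouring histone H3 gene H3C1. To which of the 2 genes it belongs was not determined.

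HIST1H4H lost about as much. Its levels at chr6:26285258-26285758 were 8.81 and 7.80 in the authors' deposited table, a difference of -1.01 (FDR 0.0577). For HIST1H4J the levels at chr6:27792022-27792522 were 8.54 and 7.60 in the authors' deposited table, a difference of -0.94 (FDR 0.0579).

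HIST1H4E, first in Rbap46, had the smallest loss of the 6. Its site at chr6:26204796-26205296 went from 9.30 to 8.39 in the authors' deposited table, a difference of -0.91 (FDR 0.0621), leaving 53.2%. Its shControl level was the highest of the 6 and the only one above the table's median of 9.27. The order of the 6 losses thus differed from the order of the Rbap46 differences at the same genes. The losses spanned 0.35 on the log2 scale, and without values per library it cannot be said which of them differ from each other.

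HIST1H4C, HIST1H4D and HIST1H4I had an Rbap46 site at the start but no H3K9ac site in the table. Their Rbap46 differences, from 1.94 to 2.09, lay within the range of the 6 genes with an H3K9ac site, from 1.05 to 3.34. The nearest listed H3K9ac site was 19.5 kb away from HIST1H4C, 6.4 kb from HIST1H4D and 5.8 kb from HIST1H4I. HIST1H4F had its nearest one at 5.5 kb, at chr6:26234606-26235106, with a difference of -1.39 computed from the authors' deposited table. Sites above an FDR of 0.1 are not in the table, so an absent site does not show that H3K9ac was unchanged.

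The H3K9ac sites were placed differently from the Rbap46 sites. The strand was taken from RefSeq for 5 of the 6 genes with both. At all 5 (HIST1H4B, HIST1H4E, HIST1H4H, HIST1H4J and HIST1H4K) the centre of the H3K9ac site lay downstream of the centre of the Rbap46 site nearest the start. At HIST1H4K the second Rbap46 site was centred farther downstream, at 576 bp from the start against 360 bp for H3K9ac. The distances between centres were 61 bp at HIST1H4B, 230 bp at HIST1H4H, 266 bp at HIST1H4E, 556 bp at HIST1H4K and 611 bp at HIST1H4J. HIST1H4A, without a strand here, had the largest distance, 846 bp. Its H3K9ac site lay toward H3C1, with a gap of 345 bp to the Rbap46 site nearest the start. At HIST1H4J and HIST1H4K the H3K9ac site did not overlap the Rbap46 site over the start, but overlapped the weaker second site by 468 bp and 285 bp. The H3K9ac site covered the start as given at HIST1H4B and HIST1H4E. At HIST1H4H it lay 42 bp from the start, which is less than the precision of the start.

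Unlike Rbap46, the H3K9ac loss at H4 genes was not at the head of the cluster. The 38 other H3K9ac sites from 26 to 28 Mb all had lower H3K9ac in shHAT1, as did 2174 of all 2191 sites listed. The median difference of the 38 was -1.12 against the -1.05 of the H4 genes. A loss of at least 2-fold was seen at 32 of the 38 sites and at 4 of the 6. Among all 44 sites of the cluster, ordered by size of loss, HIST1H4B held place 9 and HIST1H4E place 40. Of the 38 other sites 23 were under an FDR of 0.05, against 0 of the 6. The 3 largest losses outside the listed H4 genes were -1.39 at chr6:26234606-26235106, -1.35 at chr6:27113546-27114046 and -1.33 at chr6:26196429-26196929, computed from the authors' deposited table.

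The starting level of the H4 sites was moderate. Their median shControl level was 8.54, against 8.86 at the other sites of the cluster and 9.27 in the whole table. Among the 955 other sites with a shControl level in the range of the 6, from 8.22 to 9.30, the median difference was -0.83 and 26.18% lost at least 2-fold. The tables were normalized separately, and their levels were not compared with each other.

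**Figure D4:**
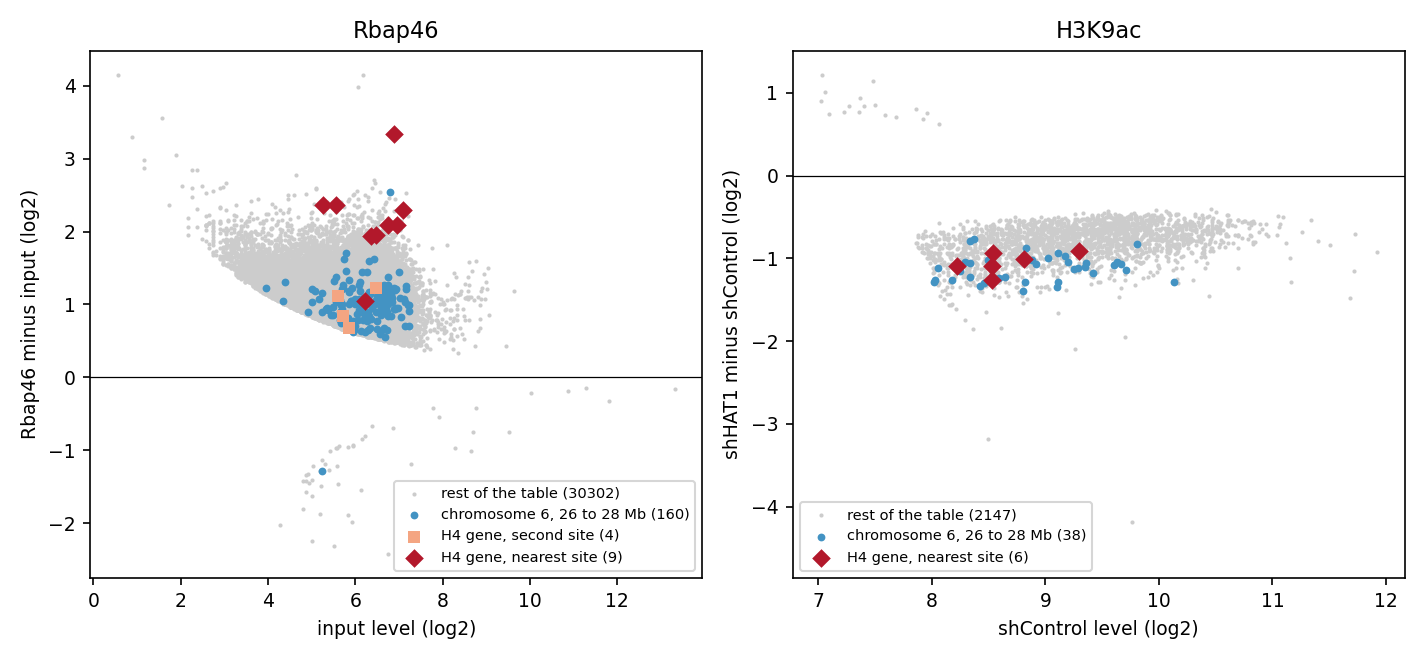
Difference between groups (log2) against the level in the reference group (log2) for every site of the Rbap46 table (left) and of the H3K9ac table (right). Red diamonds are the sites nearest H4 starts, orange squares second sites, blue points other sites of chromosome 6 from 26 to 28 Mb and grey points the rest. In the left panel 8 of 9 diamonds lie at 1.94 or above, above all blue points but 1, and in the right panel the 6 diamonds lie among the blue points.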

How the data were processed

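ChIP-seq of hTert-HME1 cells was represented by 2 tables in which the authors compared Rbap46 with input, and H3K9ac between shControl and shHAT1 cells. Per the submitters' processing notes the build was hg19 and the tools included Bowtie2, MACS2 and DiffBind, with MACS2 2.1.0 named for the Rbap46 and input libraries. Their settings and the scaling between libraries were not given in the sources used here. Levels and folds were deposited by the authors. They were read as log2 values averaged over the libraries of a group, which the file headers do not spell out. The deposited level of both groups together matched the log2 of the mean of the linear group levels within 0.01. The p-value and FDR of each site were deposited by the authors and used as given.

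Differences were recomputed from the deposited group levels, and matched the deposited folds in size within 0.01. For H3K9ac the deposited fold is shControl minus shHAT1, so the sign of the differences given here is the reverse of it. The number of sites tested, 80831 to 80834 for Rbap46 and 12048 to 12049 for H3K9ac, was inferred from the ranks of p-value and FDR, and shares of tested sites use the lower figure. Sites were assigned to genes with Python 3.11.15 and pandas 2.3.3, after a check on simulated data. A gene with several sites was represented by the one with its centre nearest the start. All 10 genes are named, and outside them the 3 sites of the cluster with the largest difference in each table. Promoters were aligned with biopython 1.88. They were to be printed for chosen genes only, and the stretch is instead given for every gene that has one.

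The genes, the window and the lists were chosen with earlier results of these data known. With group means only, no model was fitted and no SD could be computed, and the planned test per site was not run. Other genes of histone supply fixed for this work were not placed, because no annotation of hg19 was used here.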

Additional observations from a re-analysis of the deposited data

How the results depend on the processing

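Of the 29 alternatives fixed at the outset for counts and medians, 22 left the value within 1.5 times (counts) or without change (medians). The 9 genes with an Rbap46 site were 9 under all 8 alternatives tried for that count. The 6 genes with lower H3K9ac fell to 0 at FDR under 0.05 and to 0 at FDR under 0.01, and to 2 where the site had to cover the start. The genes with both fell likewise to 2 where both sites had to cover the start. These limits remove sites by construction. The median Rbap46 difference of 2.09 was 1.95 over all member sites and 1.94 with the mean of each gene's sites. The median H3K9ac difference of -1.05 was -1.09 over the 2 genes whose site covered the start, HIST1H4B at -1.26 and HIST1H4E at -0.91. It was -1.01 without HIST1H4A, an alternative chosen after seeing the data. Moving the starts by 100 bp either way changed none of the counts within 1 kb and neither median. Leaving out HIST1H4J and HIST1H4K, which was run for the medians only, changed neither of them. Both alternatives were also chosen after seeing the data. Counts at 2-fold or 4-fold and of sites covering a start were not rerun with moved starts. With the HIST1H4J start 100 bp higher, the second site, at 1.12, lies nearest in place of the one at 2.36. The site at 2.36 then no longer covers the start. No paired analysis was possible because only group means are given for each site. Leaving out a replicate and another normalization were not run for the same reason. Sites of low concentration can pass the FDR limit only with a large difference, so a weak difference at an H4 gene with few reads was not detectable.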
